A study of Mus musculus with 2 samples.

Results

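The clustered protocadherins are cell adhesion proteins of neurons, encoded by 3 neighbouring gene clusters, alpha, beta and gamma, on mouse chromosome 18. Members were the annotated protein-coding genes with at least 1 read in either library whose symbol places them in these clusters. There were 43 members among 18534 annotated genes with reads, 5 in the alpha, 20 in the beta and 18 in the gamma cluster. The annotation, GENCODE M21 on mm10, lists 56 protein-coding genes there (13, 22 and 21), so 13 had no read given to them. Pcdhgb8 also fits the name pattern, but it is annotated as a polymorphic pseudogene and was left out (1 and 2 reads).

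Each gene of the alpha and gamma clusters has a promoter and a large variable exon of its own, which encodes the extracellular cadherin repeats, the membrane span and the first stretch of the cytoplasmic tail. The variable exon is spliced to 3 constant exons that all genes of its cluster share and that encode the rest of the tail. Beta genes consist of 1 large exon and have no constant exons. Single neurons express small, differing sets of the alternate genes, with promoter choice set by DNA methylation, CTCF and cohesin, while the C-type genes (Pcdhac1, Pcdhac2, Pcdhgc3, Pcdhgc4 and Pcdhgc5) are more widely expressed. Matching sets on 2 membranes bind each other, which is known for its part in self-avoidance of neurites and, for Pcdhgc4, in the survival of cortical interneurons.

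RNA of left cerebral cortex was sequenced as long reads, which can span a whole transcript, in 2 libraries of 1 group, biological replicates 1 and 2. The mice were B6CASTF1/J, a hybrid of C57BL/6J and the wild-derived CAST/EiJ strain, 18 to 20 months old, with no treatment named by the labels, and 2 µg of RNA went into each library. Both libraries share a donor entry, no label says that they came from separate animals, and the labels give female in one field and male in another. Spread between the libraries may therefore be technical.

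Depth set what could be seen. The libraries held 871524 and 839150 reads, of which 774629 (88.9%) and 679147 (80.9%) lay on annotated genes, and 1 read on an annotated gene equals 1.29 and 1.47 CPM, a level relative to all reads on annotated genes in that library. No read over a gene allows a level of up to 3.87 and 4.42 CPM. Single-exon models took 20.6% and 28.7% of mouse reads. Each read was counted once, whatever the length of its transcript, so levels were not divided by transcript length. Whether long and short transcripts were read with equal chance was not tested. Of the cell type markers, cortical neuron genes were present (Slc17a7 at 1142 and 973 CPM, Tbr1 at 123 and 106 CPM). So were glial genes (astrocyte Aldoc at 2370 and 2509 CPM, oligodendrocyte Mbp at 1490 and 1269 CPM). Other markers of such cells were near the floor, with 5 and 4 reads for Slc32a1, 2 and 1 for Mog and 0 and 7 for Cx3cr1. Tph2, Slc6a4 and Folr1 had no read. Genes listed as markers of neighbouring tissue were also read. Of the striatal list, Ppp1r1b stood at 378 and 350 CPM, Drd1 had 24 and 12 reads and Drd2 3 and 5. Choroid plexus Ttr had 18 and 5 reads and hippocampal Prox1 3 and 1. Whether these reads came from such tissue or from cortex, and their part in the member values, was not tested. The tissue is a mixture, so fewer cells of a type and less RNA per cell cannot be told apart.

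The cluster coordinates on mm10 chromosome 18, from the first variable exon to the last exon, are 36930184 to 37187661 for alpha, 37264938 to 37524479 for beta and 37661793 to 37841873 for gamma. Because the constant exons are shared, the gene to which a read was given need not be the gene whose variable exon it holds. Reads were therefore counted in 2 ways. Gene reads follow the deposited gene of each transcript model. Variable exon reads are those of sense models with at least 50 bases inside an annotated variable exon.

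By gene, the gamma cluster held 270 and 266 reads (349 and 392 CPM), the beta cluster 83 and 76 reads (107 and 112 CPM) and the alpha cluster 47 and 36 reads (60.7 and 53.0 CPM). The means were 370 ± 30.5, 110 ± 3.36 and 56.8 ± 5.42 CPM (SD, n = 2). Gamma thus had the most reads and alpha the fewest in both libraries, with gaps larger than the spread between them. Transcripts of the clusters differ in length, and the part of length in this order was not tested. By variable exon the order was the same, with 215 and 204 reads for gamma, 83 and 76 for beta and 38 and 23 for alpha.

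Reads were thin for most members. The median member had 6 gene reads over both libraries, 33 members had at least 3 and 15 had at least 10. Reads were found in both libraries for 33 members, in replicate 1 alone for 4 and in replicate 2 alone for 6, the last with at most 2 reads each. Of the 43 members, 37 had reads in replicate 1 and 39 in replicate 2. Of all 18534 annotated genes with reads, 16594 had them in replicate 1 and 16718 in replicate 2. Whether members differed from all genes in this was not tested. Variable exon reads were found for 47 of the 56 annotated genes, in both libraries for 33. At this depth the absence of the other 9 was not distinguishable from a low level. For 5 of the 47, all in the alpha cluster, the reads came only from models with 2 variable exons, described below.

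**Figure D1:**
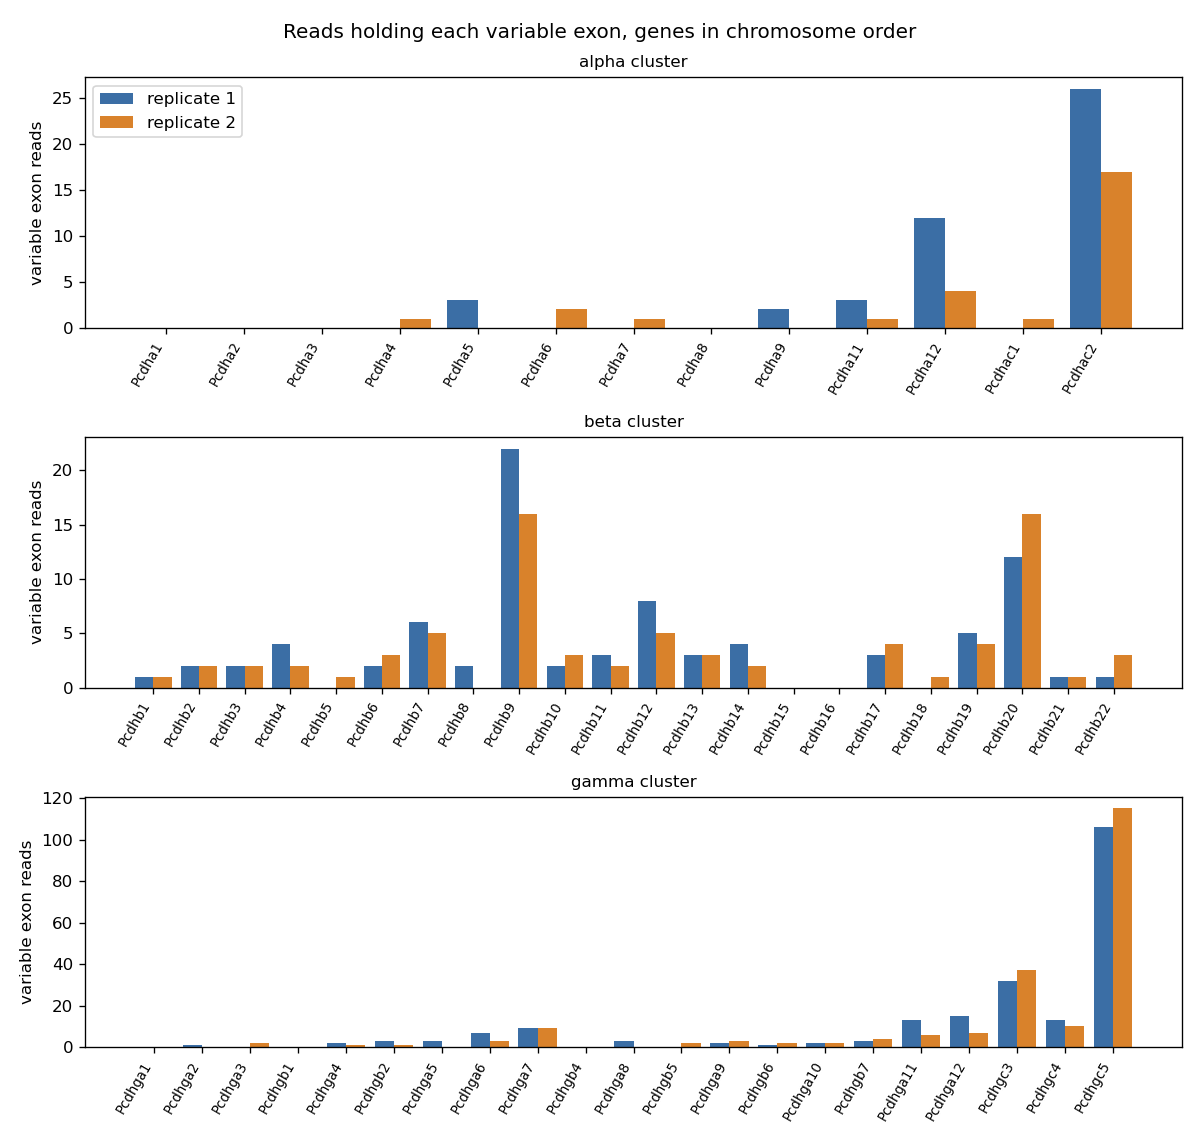
Reads holding each variable exon (y axis, reads, with a separate linear scale per panel) for the 56 annotated genes in chromosome order (x axis), with replicate 1 in blue and replicate 2 in orange. Pcdhgc5 stands at 106 and 115 reads at the end of the gamma cluster, Pcdhac2 at 26 and 17 at the end of the alpha cluster, and Pcdhb9 and Pcdhb20 lead the beta cluster.

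C-type genes held most of the alpha and gamma variable exon reads. They accounted for 177 of 253 such reads in replicate 1 (70.0%, 95% Wilson interval 64.0% to 75.3%) and 180 of 227 in replicate 2 (79.3%, 73.6% to 84.1%). These intervals overlap only at their edges, and the difference between the libraries was not tested. They cover counting error only, as all intervals here do. Pcdhgc5, the last variable exon of the gamma cluster, had 106 and 115 variable exon reads, 153 ± 23.0 CPM (SD, n = 2). It alone made up 49.3% (42.7% to 55.9%) and 56.4% (49.5% to 63.0%) of gamma variable exon reads. These Pcdhgc5 reads, and so the C-type counts, include 21 and 26 with an early-ending first exon, described below. Such reads hold little of the variable exon. Pcdhgc3, a C-type gene known to inhibit Wnt signalling through Axin1, followed with 32 and 37 reads (47.9 ± 9.31 CPM). Its share of gamma reads was 14.9% (10.7% to 20.3%) and 18.1% (13.5% to 24.0%). Pcdhgc4 had 13 and 10 reads (15.8 ± 1.46 CPM).

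The 2 alpha C-type genes differed. Pcdhac2 had 26 and 17 variable exon reads (29.3 ± 6.03 CPM), which was 68.4% (52.5% to 80.9%) and 73.9% (53.5% to 87.5%) of the alpha reads. Pcdhac1 had 0 reads in replicate 1 and 1 read in replicate 2. Pcdhac2 thus exceeded Pcdhac1 in both libraries, by far more than the spread of either gene.

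The gamma A genes, named by the sequence type of their variable exon, held 57 and 33 variable exon reads (61.1 ± 17.7 CPM) over 12 annotated genes. Those with the most reads were Pcdhga12 (15 and 7), Pcdhga11 (13 and 6), Pcdhga7 (9 and 9), Pcdhga6 (7 and 3), Pcdhga9 (2 and 3) and Pcdhga10 (2 and 2). Pcdhga12 and Pcdhga11 are the variable exons nearest to the C-type genes among the gamma A genes, and their levels, 14.8 ± 6.40 and 12.8 ± 5.62 CPM, differed by less than their spread. Gamma B genes were scarcer, with 7 and 9 reads (11.1 ± 2.98 CPM) over 6 annotated genes. Pcdhgb7 had 3 and 4 reads, Pcdhgb2 3 and 1, Pcdhgb6 1 and 2, and Pcdhgb5 0 and 2, and the other 2 genes, Pcdhgb1 and Pcdhgb4, had none.

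Beta genes varied within the cluster. Pcdhb9 had 22 and 16 reads (28.4 and 23.6 CPM) and Pcdhb20 had 12 and 16 (15.5 and 23.6 CPM), and their ranges meet. Together they made up 34 of 83 beta reads in replicate 1 (41.0%, 31% to 51.7%) and 32 of 76 in replicate 2 (42.1%, 31.6% to 53.3%). Next came Pcdhb12 (8 and 5 reads), Pcdhb7 (6 and 5), Pcdhb19 (5 and 4) and Pcdhb17 (3 and 4). The median beta gene had 5 reads over both libraries. Pcdhb15 and Pcdhb16 had none. As beta transcripts have a single exon, these reads show no splice junction, and genomic origin of a read cannot be told apart from a beta message.

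Similarity of the variable exons bears on how far a read can be placed. Identity here is 100 minus the percent of the longer coding stretch that must be edited to turn one gene's variable exon into another's. The closest relative of a beta gene was 59.9% to 89.0% identical (median 76.5%), and that of an alternate alpha gene 75.2% to 84.0% (median 78.7%). Pcdhb9 was 88.9% identical to Pcdhb7, while Pcdhb20 was 76.5% identical to Pcdhb19. C-type genes were at most 59.2% identical to any other clustered gene and shared no stretch of 31 bases with one. In alternate alpha genes, 17.5% to 38.5% of all such stretches also occurred in another gene (median 21.4%). The share was 8.89% to 24.3% in gamma B (median 22.4%), 0% to 31.3% in beta (median 17.4%) and had a median of 2.61% in gamma A. How far this affected the placing of reads was not tested.

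Gene reads and variable exon reads were equal in both libraries for 30 of the 43 members, among them all 20 beta genes, and far apart for a few. As the variable exon of a beta gene is its only exon, equal counts there say little about how reads were placed. Among gamma gene reads, 75.9% and 71.8% held the variable exon of the gene they were given to, 1.48% and 0.752% held another gene's, and 22.6% and 27.4% held none. Among alpha gene reads the own variable exon was found in only 48.9% and 47.2%, another gene's in 31.9% and 16.7%, and none in 19.1% and 36.1%. At 10 or more gene reads, gene and variable exon totals differed by more than 2-fold for Pcdha2 and Pcdhga2.

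Pcdha2 had 17 and 6 gene reads, and none of them held its variable exon. In replicate 1, 8 of the 17 came from models with 2 other alpha variable exons, 6 held that of Pcdhac2, 1 that of Pcdha12 and 2 held none. In replicate 2, 3 of the 6 came from models with 2 variable exons and 3 held that of Pcdhac2. Pcdha12 was split the other way, with 3 and 14 gene reads against 12 and 4 variable exon reads, since 13 of its gene reads in replicate 2 were of a model holding the last constant exon alone. Pcdhga2 had 62 gene reads in replicate 1 and 0 in replicate 2, of which 61 were of a 1968 nt single-exon model that lies within the last gamma constant exon. A single read held the Pcdhga2 variable exon.

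**Figure D2:**
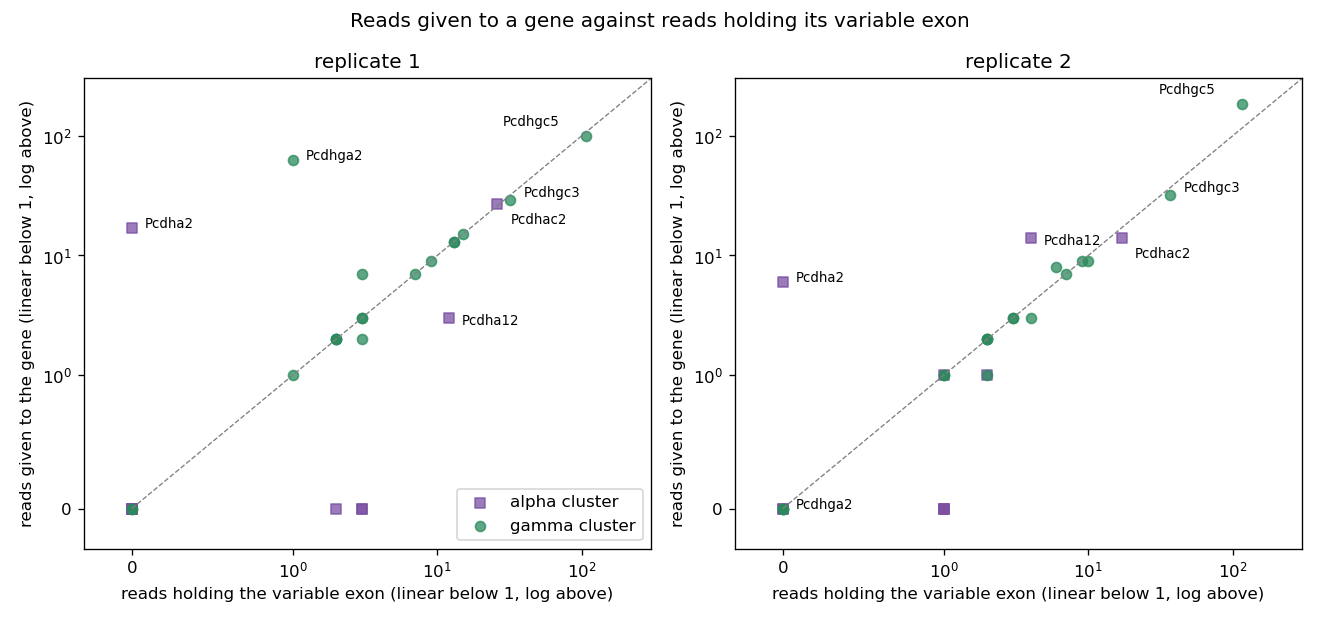
Reads given to each alpha (squares) and gamma (circles) gene (y axis, reads) against reads holding its variable exon (x axis, reads), for replicate 1 at left and replicate 2 at right, with both axes linear below 1 and logarithmic above it. Points on the dashed line are equal by both counts; Pcdha2 (17 against 0) and Pcdhga2 (62 against 1) lie far above it in replicate 1, and Pcdhgc5 (183 against 115) lies above it in replicate 2.

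Between the libraries, 10 members with at least 20 reads in total could be tested by a two-sided exact binomial test of their reads against the library totals, adjusted by Benjamini and Hochberg over 9143 annotated genes. Of these, 2 were called at an adjusted p under 0.05, against 182 of all 9143 genes (1.99%). One was called lower in replicate 2, where the share over all genes was 0.733%, and one higher, where it was 1.26%. The median log2 ratio of replicate 2 to replicate 1 was -0.40 for the 10 members and 0.03 for all tested genes. The test covers counting error alone, so it compares these libraries and no condition. Among the cell type markers, Mbp of oligodendrocytes (1490 and 1269 CPM) and Cldn5 of endothelium (265 and 172 CPM) were also called lower in replicate 2, and their part in the member values was not tested.

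The gene called lower was Pcdhga2, at 80.0 CPM in replicate 1 and 0 reads in replicate 2, at least 18.1-fold lower there against the limit that 0 reads allow (adjusted p = 2.21e-14, exact binomial test). The gene called higher was Pcdhgc5, with 100 and 183 gene reads, or 129 and 269 CPM (adjusted p = 6.62e-07 by the exact binomial test). The log2 ratio was 1.06, with an SE of 0.18 from counting alone. Of the 183 Pcdhgc5 reads in replicate 2, 73 were of a 2853 nt single-exon model that starts in the intron before the last gamma constant exon and ends with that exon. Single-exon models over this exon therefore held 61 reads in replicate 1, given to Pcdhga2, and 73 reads in replicate 2, given to Pcdhgc5. Summed regardless of gene, they stood at 78.7 and 107 CPM, with a counting SD of 10.1 and 12.6 CPM.

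Restricted to multi-exon models, 7 members could be tested and 0 were called by the exact binomial test, against 78 of 7933 genes (0.983%). None of the 7 had an unadjusted p under 0.05. Pcdhgc5 then had 99 and 110 reads (log2 ratio 0.36, adjusted p = 0.551, exact binomial test). Counted by variable exon it had 106 and 115 reads (log2 ratio 0.31, adjusted p = 0.603, exact binomial test). Pcdhga2, with a single variable exon read, could not be tested in this way.

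Most variable exon reads were spliced to the constant exons at the annotated sites. In the gamma cluster this held for 176 of 215 reads (81.9%, 76.2% to 86.4%) and 166 of 204 (81.4%, 75.5% to 86.1%), and with other donor or acceptor sites included for 93.0% and 97.1%. In the alpha cluster it held for 28 of 38 (73.7%, 58.0% to 85.0%) and 18 of 23 (78.3%, 58.1% to 90.3%), and all 38 and 23 were joined when other sites were included. Pcdhac2 used the annotated donor in 25 of 26 and 15 of 17 reads, and Pcdha12 in 3 of 12 and 1 of 4. Pcdhgc3 used it in 32 of 32 and 33 of 37 reads, Pcdhga12 in all 15 and 7, and Pcdhga11 in all 13 and 6.

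Some sense reads over the constant exons held no member variable exon. Their share was taken of all sense reads with a variable or a constant exon, a few of which, in gamma, held no constant exon. It was 20.8% (11.7% to 34.3%) and 36.1% (22.5% to 52.4%) in the alpha cluster. In the gamma cluster it was 25.9% (21.2% to 31.2%) and 29.4% (24.5% to 34.9%). The majority of the reads without a variable exon were of single-exon models over the last constant exon, 8 and 13 reads in alpha and 61 and 73 in gamma. Gm38182, an annotated noncoding gene whose first exon lies just before the first gamma constant exon, gave 13 and 8 of the remaining gamma reads. The files do not give the ends of single reads, so whether such molecules are incomplete copies was not tested.

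**Figure D3:**
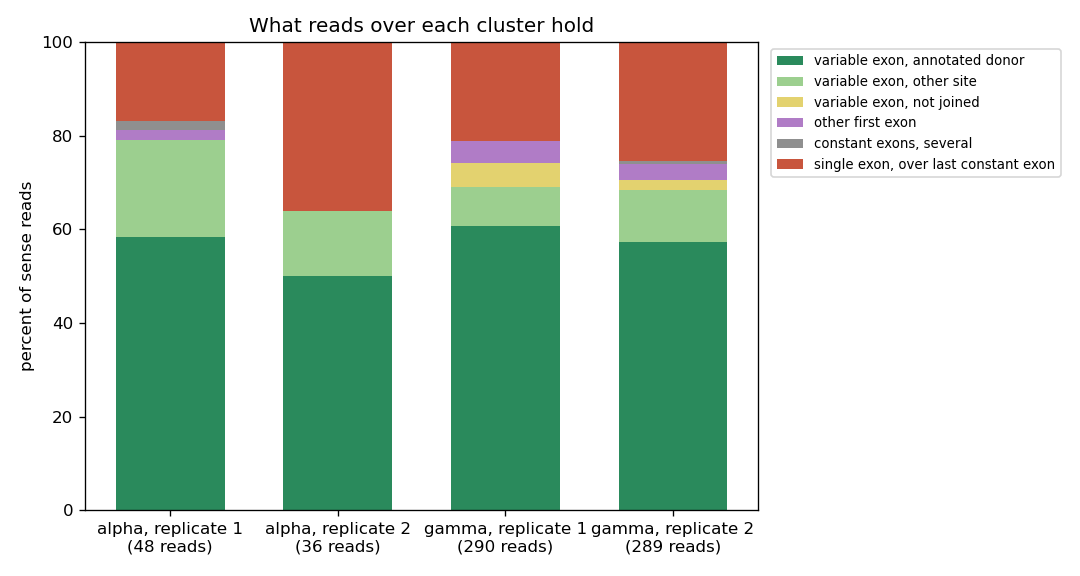
Share of sense reads over the alpha and the gamma cluster (y axis, percent, stacked to 100) by what the model holds, for each library (x axis, with the number of reads). Dark green, reads with a variable exon joined at the annotated donor, makes up 28 of 48 and 18 of 36 reads in alpha and 176 of 290 and 166 of 289 in gamma; red, single-exon models over the last constant exon, makes up 8 and 13 reads in alpha and 61 and 73 in gamma.

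Pcdhgc5 was read in several forms. Its variable exon was joined at the annotated donor in 72 of 106 reads (67.9%, 58.5% to 76.0%) and 85 of 115 (73.9%, 65.2% to 81.1%). In 21 of 106 reads (19.8%, 13.3% to 28.4%) and 26 of 115 (22.6%, 15.9% to 31.1%) the first exon ended early and nearly all of the variable exon was spliced out. A form that keeps the intron after the variable exon had 10 of 106 reads (9.43%, 5.21% to 16.5%) and 4 of 115 (3.48%, 1.36% to 8.60%). For each of these forms the 2 libraries' intervals overlapped. The forms differ in length, and the part of length in their shares was not tested.

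The early donors of Pcdhgc5 lie just behind its start codon. The annotated form Pcdhgc5-203 ends its first exon at position 37819698, after 24 of the 2460 coding bases of the variable exon, and that donor had 6 and 4 reads. Pcdhgc5-204 ends at 37819712, after 38 coding bases, and that donor had 12 and 17 reads. An unannotated donor at 37819723 had 3 and 3 reads, and another at 37819716 had 0 and 2. Joined this way, the first of these forms keeps the reading frame of the constant exons and the other 3 do not. The bases lost encode the cadherin repeats and the membrane span. In the other gamma genes together, early first exons had 0 of 109 reads in replicate 1 (up to 3.40%) and 6 of 89 in replicate 2 (6.74%, 3.13% to 13.9%). Those 6 were 4 of 37 Pcdhgc3 reads (10.8%, 4.29% to 24.7%), 1 of 10 Pcdhgc4 reads (1.79% to 40.4%) and 1 of 2 Pcdhgb5 reads. The Pcdhgc3 and Pcdhgc4 intervals overlap that of Pcdhgc5 in replicate 2, and the difference between genes was not tested.

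Models with 2 variable exons were seen in the alpha cluster. They held 8 of 38 alpha variable exon reads in replicate 1 (21.1%, 11.1% to 36.3%) and 4 of 23 in replicate 2 (17.4%, 6.98% to 37.1%). Every one joined a stretch of an upstream variable exon (Pcdha4, Pcdha5, Pcdha6, Pcdha7, Pcdha9 or Pcdha11) to a site inside the Pcdha12 exon, which was then spliced to the constant exons. The upstream exons give 5 genes without gene reads (Pcdha4, Pcdha5, Pcdha7, Pcdha9 and Pcdha11) their only variable exon reads. An acceptor 309 bases into the Pcdha12 exon served 8 of the 12 reads. Without an upstream exon, Pcdha12 had 4 and 0 reads, of which 3 used its annotated donor.

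The joined alpha exons are alike in sequence. The 6 upstream genes were 74.8% (Pcdha9) to 77.9% (Pcdha5) identical to Pcdha12 over the coding part of the variable exon. At 7 of the 8 distinct junctions, which carry 11 of the 12 reads, the bases around the donor and those around the acceptor were the same over 14 to 81 nt. The median over the 8 junctions was 52 nt. At the early donors of Pcdhgc5 the same count was 0 to 6 nt. Whether these alpha molecules existed in the tissue or arose in library making or alignment was not tested.

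Inside variable exons, 22 of 24 donor sites other than the exon's annotated end were followed by GT, the usual donor dinucleotide. These carried 54 of 85 reads at such sites, and they include the donors of the annotated forms Pcdhgc5-203 and Pcdhgc4-203. The other 2 were followed by GC, a rarer donor type, and one of them is the annotated donor of Pcdhgc5-204. All 5 acceptor sites were preceded by AG, which is the usual acceptor dinucleotide. The aligner is not named, and whether it placed junctions at such dinucleotides by preference was not tested.

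The alpha constant region has 2 annotated ends. In one the last exon is read through and contributes 308 coding bases. In the other an intron within it is removed, and the final exon contributes 68 besides those of the piece before the intron. This changes the end of the cytoplasmic tail. For Pcdha1 the annotated coding lengths are 2844 bases read through and 2706 bases spliced. Among multi-exon alpha reads that reach this exon, the spliced form had 9 of 40 in replicate 1 (22.5%, 12.3% to 37.5%) and 3 of 23 in replicate 2 (13.0%, 4.54% to 32.1%). Pcdhac2 had the spliced form in 5 of 26 and 1 of 17 reads, and Pcdha12 in 4 of 12 and 1 of 4. The intervals of the libraries and of the 2 genes overlapped, and the differences were not tested. In the gamma constant region, 5 of 224 reads (2.23%, 0.957% to 5.12%) and 3 of 213 (1.41%, 0.480% to 4.06%) used an unannotated acceptor 3 nt before the second constant exon, which adds 1 codon.

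**Figure D4:**
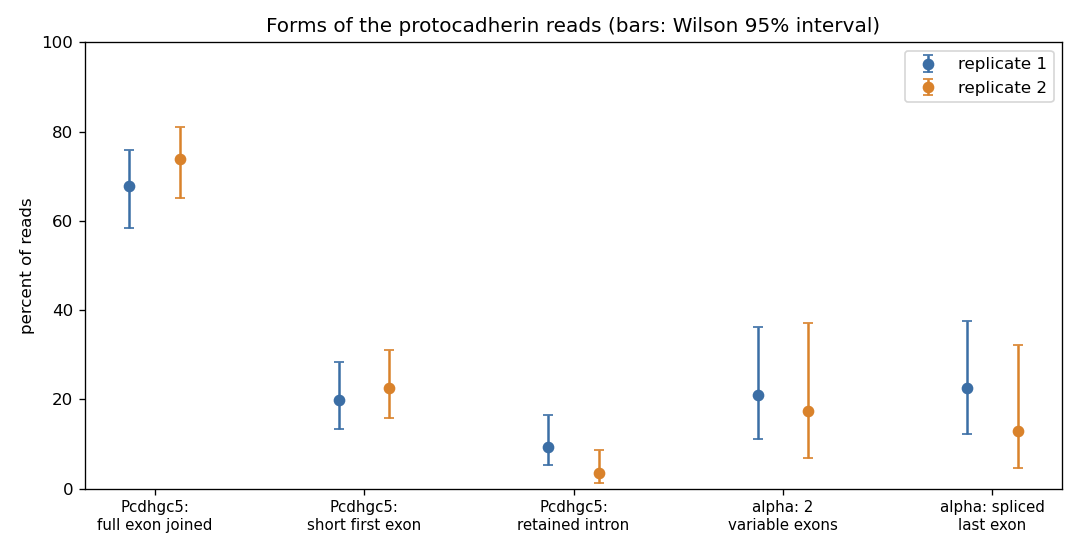
Share of reads (y axis, percent) for 5 transcript forms (x axis), with points for replicate 1 (blue) and replicate 2 (orange) and bars for 95% Wilson intervals. The first 3 are shares of Pcdhgc5 variable exon reads, the fourth of alpha variable exon reads and the last of multi-exon alpha reads reaching the last exon; the libraries' intervals overlap for every form, as for the short first exon at 19.8% and 22.6%.

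Models on the opposite strand over variable exons held 17 and 8 reads against 336 and 303 in sense. They were spread over 12 and 8 models with at most 3 reads each in replicate 1 and 1 read in replicate 2. A single-exon antisense model in the intron between the first and second gamma constant exons, at chr18:37830603-37831784 in replicate 1 and 1 base shorter in replicate 2, had 10 reads in each library. How read orientation was set is not given, so these strands are as deposited.

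Genes related to the clustered protocadherins, or listed for their regulation, binding or signalling, were read at their own levels. Of 12 non-clustered protocadherins, which are encoded singly elsewhere in the genome, 11 had reads and summed to 266 ± 36.4 CPM (SD, n = 2). At 240 and 292 CPM they lay below the gamma cluster counted by gene, at 349 and 392 CPM. Counted by variable exon, gamma stood at 278 and 300 CPM, close to them in replicate 2, and the difference was not tested. Pcdh8, an activity-regulated synaptic protocadherin, led them with 65.8 and 105 CPM, then Pcdh1 with 36.1 and 44.2 CPM and Pcdh10, which recruits actin regulators, with 46.5 and 32.4 CPM. Pcdh12 had no read. In this list 7 genes were tested between the libraries and 0 were called (1 with an unadjusted p under 0.05, exact binomial test).

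The list for promoter choice and looping held 21 genes, all with reads, at 719 ± 83.3 CPM in sum. Trim28, a corepressor of chromatin, had 239 and 214 CPM, Mau2, a cohesin loader, 69.7 and 85.4, and Smc1a, a cohesin subunit, 40.0 and 44.2. Of its genes, 15 were tested and 0 called (2 with an unadjusted p under 0.05, exact binomial test). The 20 binding partners and signalling genes summed to 2851 ± 39.1 CPM. Marcks, an actin-binding substrate of protein kinase C, had 360 and 294 CPM, Ptk2b, a kinase that the constant tails bind and inhibit, 316 and 311, and Nckap1, a subunit of the WAVE actin regulator, 296 and 309. Here 19 were tested and 0 called (5 with an unadjusted p under 0.05, exact binomial test). Over all 9143 tested genes, 1075 had an unadjusted p under 0.05.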

How the data were processed

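For each of 2 libraries the authors deposited whole-number counts of long reads per transcript model and an annotation of the models (mm10, GENCODE M21, per the deposited notes). TALON is named in the annotation's source column. Nothing in the sources used here names the aligner, versions, filters or read orientation. Models without reads are not listed and were taken as 0.

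Spike-in models were set aside. Gene reads are sums over all models of an annotated gene, scaled to reads on annotated genes (CPM). Models were matched to variable and constant exons by their exon coordinates, which are those of the model and not of each read. Variable exon reads needed 50 bases, and the constant exons were taken from the annotation. Identity came from edit distances of the annotated transcripts.

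With 1 group of 2 libraries, edgeR's quasi-likelihood test could not be fitted. Genes with at least 20 reads were compared by a two-sided exact binomial test (scipy 1.17.1) with Benjamini-Hochberg adjustment, tested on simulated data first. Log2 ratios compare CPM + 1 in replicate 2 with replicate 1. edgeR 4.0.16 (TMM) and DESeq2 1.42.0 (size factors) gave alternative scalings. A limit for 0 reads is 3 counts of the total.

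Members and lists were chosen with earlier results of these data known. The genes named are all C-type genes, the 6 genes of each other group with the most variable exon reads, called members, members whose 2 counts differ over 2-fold at 10 reads or more, and the 3 highest genes per list. Others were named, after their values were seen, as holders of an exon or a model described. Sequences of these genes are not printed. The result of 1 further gene list is not reported here.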

Additional observations from a re-analysis of the deposited data

How the results depend on the processing

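No paired analysis was possible because both libraries belong to 1 group. The count of called members, 2, was the same under edgeR TMM, DESeq2 size factors, a minimum of 10 reads and no minimum. It was 0 with annotated transcripts only and 0 with multi-exon models only, and all-gene calls fell from 182 to 55 and 78. Both alternatives remove the single-exon models over the last gamma constant exon. With all mouse reads as the total, the cluster means became 49.1 (alpha), 94.3 (beta) and 318 CPM (gamma). With annotated transcripts only, alpha became 26.6 and gamma 270 CPM. At 500 bases of variable exon, gamma variable exon reads gave 250 CPM, and the share joined at annotated sites became 93.6%, since short first exons are then not counted. With multi-exon models only that share was 82.8%. At a minimum of 10 reads, 15 members were detected in place of 33. The order gamma, beta, alpha of the cluster means held with all mouse reads as the total, with annotated transcripts only and in each library alone. It was not computed for multi-exon models, which leave out the single-exon beta genes. Most members had under 10 reads, differences between alternate genes were not tested, and 2 libraries allow no test of a spread between animals.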
